A study of Rattus norvegicus with 6 samples.

Results

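The small leucine-rich proteoglycans are secreted matrix proteins with a short protein core of leucine-rich repeats, most of which carry glycosaminoglycan chains or sulfated tyrosines. The 10 genes described here were taken by name, whatever their level: Dcn (decorin), Bgn (biglycan) and Aspn (asporin) of class I, Fmod (fibromodulin), Lum (lumican), Prelp, Kera (keratocan) and Omd (osteomodulin) of class II, Ogn (osteoglycin) of class III, and Chad (chondroadherin) of class IV. All 10 had a row among the 22573 genes used, and 5 of them (Bgn, Lum, Dcn, Fmod and Prelp) averaged at least 1 FPKM over the 6 samples, the level required for the test. FPKM, the authors' unit, are fragments scaled to the length of the transcript and to the fragments mapped in the library.

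RNA was sequenced from Sprague Dawley rat nucleus pulposus cells, which fill the soft centre of the intervertebral disc. The control group had 3 samples, and the strain group had 3 samples of cells under cyclic tensile strain, stretched for 24 h on a Flexcell device (18% elongation, 0.2 Hz). Because the stretching text stands on control samples too, that these were not stretched was read from their class label only. The labels give no age, sex, passage, harvest time or batch, and do not name the animal or culture behind each replicate. The p-values therefore speak of the spread among these libraries, and that spread may be technical.

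Class I proteins are known to bind fibrillar collagen and growth factors of the TGF-beta family, and decorin and biglycan carry chondroitin or dermatan sulfate chains. Class II proteins also sit on collagen fibrils, where lumican and fibromodulin share a binding region, and they can carry keratan sulfate or sulfated tyrosines. In disc and cartilage the family is known for setting the thickness and spacing of collagen fibrils.

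Each library held between 14378 and 14582 genes above 0 FPKM and summed to between 308780 and 347508 FPKM, and the depth behind these values is unknown because FPKM keep no read totals. Of 10180 tested genes, 3608 were called by limma (Benjamini-Hochberg adjusted p under 0.05 over all tested genes). The median log2 fold change was -0.01. Of 10 nucleus pulposus and notochord markers in the files, Shh and Noto were listed at 0 in every library and T (brachyury), Krt18 and Krt19 were at most 0.119, 0.139 and 0.071 FPKM in any library. Pax1 was present in every library (3.46 ± 0.40 FPKM in controls and 10.3 ± 1.08 under strain, SD, n = 3), and so were Krt8 (2.85 to 11.3 FPKM), Foxf1, Car3 and Cd24. Of the 5 of these markers that passed the filter 4 were called higher and Cd24 was not called (5.06 ± 0.63 and 4.04 ± 0.46 FPKM, SD, n = 3). The summed FPKM of these 10 markers was 21.7 to 23.7 in controls and 36.6 to 45.9 under strain, and that of 5 annulus and tendon markers was 411 to 625 and 703 to 748. Most of the latter sum was Tnc, which was not called, while Thbs4 (9.07-fold), Scx (2.44-fold) and Mkx rose and Tnmd was listed at 0 throughout. Sums were lower under strain without overlap for 4 osteoblast markers (58.1 to 75.7 and 10.9 to 34.3 FPKM), of which Ibsp fell and Sp7, Bglap and Dmp1 were under 0.1 FPKM, and for 6 macrophage markers (3.21 to 7.73 and 2.05 to 2.25 FPKM). Chondrocyte, fibroblast and smooth muscle sums overlapped. Most of the chondrocyte sum was Acan and most of the fibroblast sum Pdgfra, neither of which was called. Hapln1 of the chondrocyte list (means 0.251 and 1.89 FPKM) and Pi16 of the fibroblast list (0.803 and 2.40 FPKM) were called higher. Col2a1, under the filter, was at 0.010 to 0.068 FPKM in controls and 0.445 to 1.41 FPKM under strain. Endothelial sums were 0.071 to 0.259 and 0.301 to 0.376 FPKM, skeletal muscle sums were 0.095 to 0.158 and 0.040 to 0.079 FPKM, and 4 erythroid markers were listed at 0. The part of these shifts in the results was not tested. In bulk RNA, fewer cells of a type and less RNA per cell cannot be told apart.

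Promoter sequences (250 bases before to 50 bases after the annotated start, RefSeq, build GRCr8) were found for 7 of the 10 members, and not for Dcn, Bgn and Prelp. Those of Lum and Fmod are shown because these related genes were both abundant and only Lum was called under strain, and that of Chad because it was nearly silent. Capitals mark matches, on either strand, to any of 4 motifs that do not overlap here. These were the start-site motif TATAAA, also called the TATA box, and the E-box, spelled CACGTG, to which clock factors bind. The others were the site of AP-1 factors, written as TGANTCA with any base at N, and the GC box with the letters GGGCGG.
Lum: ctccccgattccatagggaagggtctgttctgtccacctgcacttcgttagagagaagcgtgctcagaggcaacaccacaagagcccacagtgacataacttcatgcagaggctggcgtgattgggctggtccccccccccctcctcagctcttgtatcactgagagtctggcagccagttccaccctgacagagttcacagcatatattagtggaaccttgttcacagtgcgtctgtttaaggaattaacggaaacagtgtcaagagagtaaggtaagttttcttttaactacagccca
Fmod: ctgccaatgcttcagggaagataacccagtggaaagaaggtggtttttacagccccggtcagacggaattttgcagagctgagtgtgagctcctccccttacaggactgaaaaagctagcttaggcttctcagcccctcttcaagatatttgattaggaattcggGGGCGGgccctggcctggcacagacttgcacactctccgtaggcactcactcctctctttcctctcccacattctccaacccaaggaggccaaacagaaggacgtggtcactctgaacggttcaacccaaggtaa
Chad: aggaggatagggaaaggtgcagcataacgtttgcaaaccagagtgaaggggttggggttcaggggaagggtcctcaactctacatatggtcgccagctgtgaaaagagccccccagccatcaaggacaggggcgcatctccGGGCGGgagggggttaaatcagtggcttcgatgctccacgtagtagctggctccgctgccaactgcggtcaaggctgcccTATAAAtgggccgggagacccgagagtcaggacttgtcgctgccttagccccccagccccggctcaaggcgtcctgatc
The windows lie at chr7:34245456-34245755 for Lum, chr13:48045317-48045616 for Fmod and chr10:80008795-80009094 for Chad, all on the plus strand. The Lum window held none of the 4 motifs, the Fmod window a GC box starting at position -85 from the start, and the Chad window a TATA box at -29 and a GC box at -109. Of 33469 promoter windows of this length, 14.2% held the TATA box, 6.42% the E-box, 7.33% the AP-1 motif and 33.1% the GC box. None of the 7 members' windows held the E-box or the AP-1 motif, which says only that these letters are not in these windows.

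Under strain 4 of the 5 tested members rose and 0 fell, and Fmod was not called. Over all tested genes 16.4% were called higher and 19% lower, a balance that reversed under quantile normalization (2138 genes higher and 1711 lower). Dcn had the largest fold of the 4, followed by Prelp, Lum and Bgn. The strain samples lay above all control samples in each of the 5 genes, Fmod included, a pattern that 24% of all tested genes showed (51.9% had separate groups in either direction).

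Decorin binds collagen fibrils and limits their lateral growth. Control replicates 1, 2 and 3 held Dcn at 126, 114 and 145 FPKM, and strain replicates 1, 2 and 3 at 300.1, 318 and 317 FPKM. All 3 strain libraries were far above the highest control, and they lay closer to each other than the controls did. The means were 129 ± 15.5 and 312 ± 9.92 FPKM (SD, n = 3), a ratio of 2.42, with a log2 fold change of 1.28 ± 0.11 (SE) on the log2(FPKM + 1) scale (limma adjusted p = 7.6e-05).

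Biglycan, the closest relative of decorin, carries a pair of chains and also signals through Toll-like receptors when released. Bgn was at 1247, 1341 and 1252 FPKM in the controls and 1679, 1754 and 1928 FPKM under strain. Every strain library exceeded every control, and the lowest strain value was in strain replicate 1. The ratio of means was 1.40 (1280 ± 52.7 and 1787 ± 128 FPKM, SD, n = 3), with a log2 fold change of 0.48 ± 0.11 (SE, limma adjusted p = 0.010). The call was lost without control replicate 1 or control replicate 3 (limma adjusted p = 0.0503 and 0.0506), at log2 fold changes of 0.46 and 0.46, and held without each of the other libraries.

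Lumican regulates fibril assembly and can carry keratan sulfate. Lum was at 464, 365 and 465 FPKM in the controls and 651, 653 and 599 FPKM in the strained cells. Control replicate 2 was the lowest library, and the groups did not overlap. The mean rose 1.47-fold, from 431 ± 57.6 to 634 ± 30.7 FPKM (SD, n = 3), a log2 fold change of 0.56 ± 0.12 (SE, limma adjusted p = 0.0079).

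Prelp encodes a protein with a basic end that binds heparan sulfate and links collagen to basement membranes. Its values were 35.4, 38.1 and 39.8 FPKM in the controls and 61.2, 56.5 and 62.2 FPKM under strain. The groups were separated by more than the whole spread of either. The ratio was 1.59 (37.8 ± 2.18 and 59.9 ± 3.03 FPKM, SD, n = 3; log2 fold change 0.65 ± 0.09 SE, limma adjusted p = 0.00065).

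Fibromodulin binds collagen in the same region as lumican and takes part in its cross-linking. Fmod was at 141, 138 and 136 FPKM in the controls and 156, 146 and 168 FPKM under strain. The controls were nearly equal, and the lowest strain library was just above the highest control. The ratio of means was 1.13 (138 ± 2.54 and 157 ± 11.02 FPKM, SD, n = 3), and the log2 fold change of 0.18 had a 95% interval of -0.03 to 0.38 (limma adjusted p = 0.16). That interval reaches up to a 1.30-fold difference, so an absence of change was not shown. After quantile normalization Fmod was called (log2 fold change 0.25, limma adjusted p = 0.0135, against 0.0135 to 0.32 over its 15 alternatives).

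**Figure D1:**
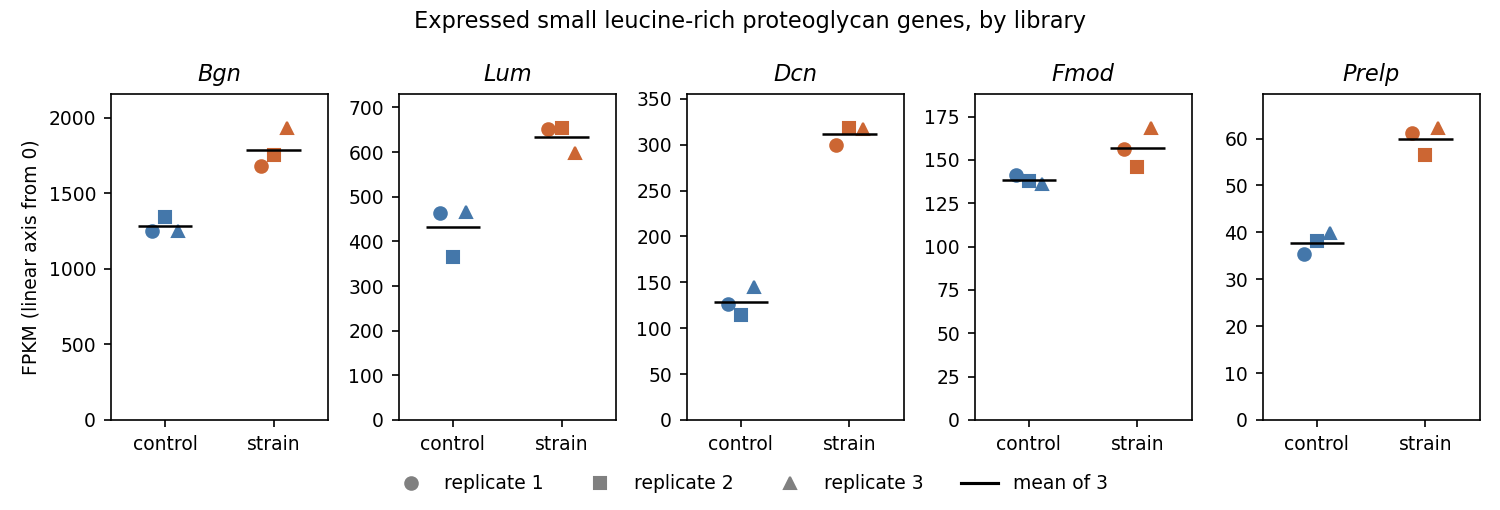
Level of the 5 expressed members in each library (vertical axes: FPKM on a linear scale from 0, 1 per gene; horizontal: group; markers: replicates 1 to 3; lines: means of 3). The groups do not overlap in any panel, with Dcn at 114 to 145 FPKM in controls and 300.1 to 318 FPKM under strain, and the Fmod groups lie closest together.

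The order of the levels changed at 1 place. In controls it ran Bgn, Lum, then Fmod and Dcn, whose values overlapped, then Prelp; under strain Dcn stood above Fmod in every library. The ratio of Dcn to Fmod was 0.830 to 1.07 in controls and 1.88 to 2.17 under strain. By rank of FPKM among all 22573 genes, Bgn moved from places 20 to 24 to places 12 and 13, Lum from 96 to 125 to 51 to 79, Dcn from 342 to 442 to 146 to 164, and Prelp from 1340 to 1516 to 836 to 878. Fmod was at places 357 to 367 and 301 to 312.

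Together the 10 members summed to 1996 to 2039 FPKM in controls and 2847 to 3075 FPKM under strain, that is 0.581% to 0.611% and 0.885% to 0.948% of each library's summed FPKM. Bgn made up most of this sum, with 61.4% to 67.2% in controls and 59.0% to 62.7% under strain, and these ranges overlapped. Lum also kept an overlapping share (18.3% to 23.0% and 19.5% to 22.9%). The share of Dcn was 5.73% to 7.12% in controls and 10.3% to 10.9% under strain, and that of Fmod 6.69% to 7.01% and 4.99% to 5.48%, so neither of these shares overlapped between the groups. Prelp held 1.76% to 1.95% and 1.93% to 2.15%.

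**Figure D2:**
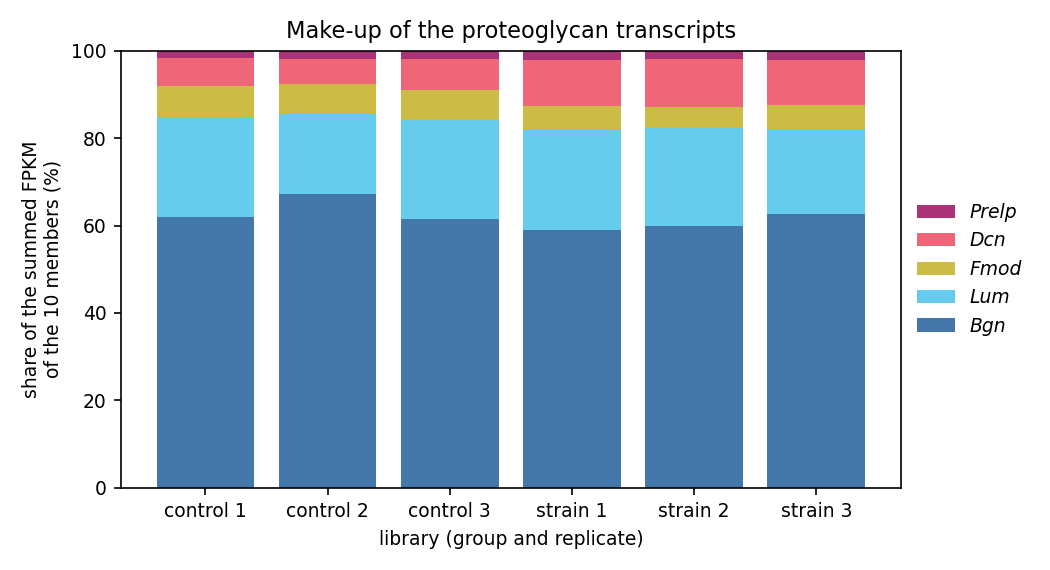
Share of each expressed member in the summed FPKM of the 10 members (vertical axis, percent) in each of the 6 libraries (horizontal axis). Dcn takes 10.3% to 10.9% of the bar in the strain libraries against 5.73% to 7.12% in controls, while Bgn stays the largest part in all 6.

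Ratios within a library do not depend on how the library was scaled. The log2 ratio of Dcn to Bgn, the related pair of class I, was -3.32 ± 0.22 in controls and -2.52 ± 0.08 under strain (SD, n = 3), a difference of 0.80 (two-sided exact permutation p = 0.10, also after Benjamini-Hochberg adjustment over 2 pairs). For Lum to Fmod, the pair that shares a collagen binding region, it was 1.63 ± 0.20 and 2.02 ± 0.17 (SD, n = 3), a difference of 0.39 (two-sided exact permutation p = 0.10). With 3 samples against 3, 0.10 is the smallest p this test can give. The groups did not overlap in either ratio: Dcn stood at 0.0853 to 0.116 of Bgn in controls and 0.164 to 0.181 under strain, and Lum at 2.65 to 3.41 times Fmod and 3.56 to 4.47 times.

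The other 5 members were all under 0.5 FPKM in every library. Osteoglycin (Ogn), a class III protein of bone and connective tissue, was listed at 0, 0.0071 and 0.0129 FPKM in the controls and at 0.166, 0.320 and 0.464 FPKM under strain. Every strain library was above every control. In the limma fit without a filter on low values it was called higher (adjusted p = 0.0150, log2 fold change 0.38 ± 0.08 SE on the log2(FPKM + 1) scale), where 23.3% of 16152 genes were called. That call was lost (adjusted p = 0.0510 to 0.0626) without control replicate 1, 2 or 3 or without strain replicate 2.

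Keratocan (Kera), best known from the cornea, went the other way, with 0.0391, 0.0798 and 0.0562 FPKM in the controls and values listed at 0 in all 3 strain libraries. Without a filter limma called it lower (adjusted p = 0.0316), and the call was lost in 5 of the 6 fits that left out 1 library (all but control replicate 1; adjusted p = 0.0671 to 0.0838). Asporin (Aspn), which lacks a glycosaminoglycan chain, had values above 0 in 3 libraries, at 0.0694 FPKM in control replicate 3 and 0.0732 and 0.0199 FPKM in strain replicates 2 and 3. Chad, a cartilage protein that binds integrins, reached 0.0088 FPKM in control replicate 1 and was listed at 0 in the other libraries. Omd, a keratan sulfate proteoglycan of bone, was listed at 0 in all 6. At these levels, with the depth unknown, a listed 0 does not show that a transcript was absent.

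**Figure D3:**
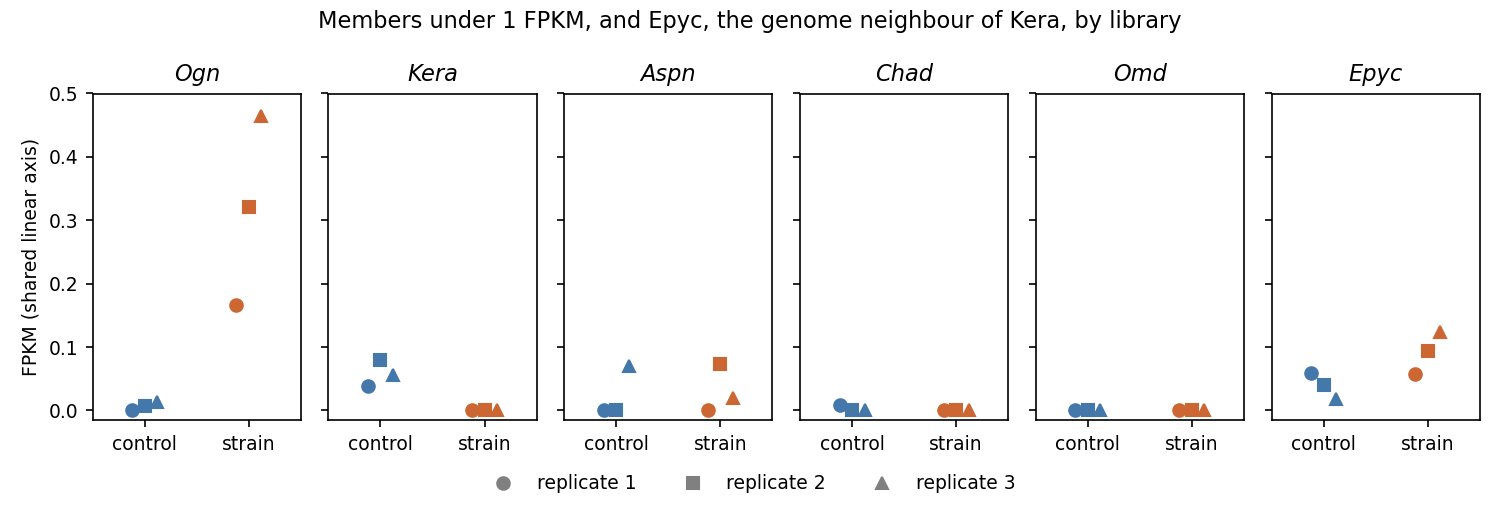
Members under 1 FPKM and Epyc in each library (vertical axis: FPKM on a shared linear scale; horizontal: group; markers: replicates 1 to 3). Ogn lies at 0.166 to 0.464 FPKM in the strain libraries and under 0.013 FPKM in controls, and the other panels stay under 0.13 FPKM.

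Of 8 further genes of the family, 7 were in the files (Podn was not matched by symbol) and 2 passed the filter. Tsku (tsukushi, class IV), a secreted regulator of growth factor signalling, was at 13.1, 13.1 and 13.4 FPKM in the controls and 21.7, 25.02 and 25.3 FPKM under strain, and it rose 1.82-fold (log2 fold change 0.81 ± 0.09 SE, limma adjusted p = 0.00026). Podnl1, a podocan-like gene of class V, rose from 6.40 ± 0.94 to 9.86 ± 1.71 FPKM (SD, n = 3; limma adjusted p = 0.017). Leaving out control replicate 3 ended its call (adjusted p = 0.0591), as did leaving out replicate 2 or 3 of the strain group (0.0581 and 0.0518). Optc lay between 0.338 and 0.598 FPKM, Nyx between 0 and 0.421 FPKM, Epyc between 0.0181 and 0.123 FPKM, Chadl under 0.08 FPKM and Ecm2 under 0.01 FPKM, each with overlapping groups.

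Most members lie beside each other in the genome, by the gene order of GRCr8: Dcn, Lum, Kera and Epyc in a row, Optc, Prelp and Fmod in a row, and Ogn, Omd and Aspn in a row. Levels differed widely within the first and the second row. Dcn and Lum were at 114 FPKM or more in every library, while their neighbours Kera and Epyc were at most 0.123 FPKM. Prelp rose between Optc, under 0.6 FPKM in every library, and Fmod, which was not called. Btg1, the gene before Dcn, and Btg2, the gene after Fmod, encode antiproliferative factors and both fell, while the genes beyond Epyc and Optc were not analysed here. Btg1 averaged 250.9 ± 26.4 FPKM in controls and 140 ± 11.9 under strain (SD, n = 3; limma adjusted p = 0.00069), and Btg2 averaged 120 ± 7.28 and 44.6 ± 10.7 FPKM (SD, n = 3; limma adjusted p = 0.00020). Beside Bgn, the spindle gene Haus7 rose from 12.8 ± 0.91 to 19.1 ± 1.89 FPKM (SD, n = 3; limma adjusted p = 0.0037) and Atp2b3 stayed under 0.01 FPKM. Cenpp, beside Ogn, was not matched by symbol. Beside Chad, Acsf2 rose from 2.64 ± 0.40 to 3.91 ± 0.51 FPKM (limma adjusted p = 0.024) and Lrrc59 was not called (111 ± 6.21 and 129 ± 8.31 FPKM, SD, n = 3).

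Enzymes that build the chains of decorin and biglycan moved in both directions: of 19 tested genes for the linker, chondroitin chain and dermatan sulfate, 5 rose, 4 fell and 10 were not called (median log2 fold change 0.09, 47.4% called against 35.4% of all tested genes). Xylt1 and Xylt2 both start the chain by adding xylose to the protein. Xylt1 was at 7.55, 7.71 and 7.38 FPKM in controls and 1.74, 1.62 and 0.901 FPKM in the strain libraries (log2 fold change -1.84 ± 0.14 SE, limma adjusted p = 5.4e-05), whereas Xylt2 was at 5.40, 5.24 and 7.03 FPKM and 7.99, 8.82 and 10.4 FPKM (0.55 ± 0.13 SE, adjusted p = 0.012). Xylt1 was above Xylt2 in all 3 controls and below it in all 3 strain libraries. Chsy3, a chondroitin polymerase, and Chst11, a chondroitin sulfotransferase, fell 2.11-fold and 1.46-fold. The dermatan sulfate enzymes Chst14, a sulfotransferase, and Dse, an epimerase, rose. Chst14 went from 8.28 ± 1.30 to 18.5 ± 2.58 FPKM (SD, n = 3, limma adjusted p = 0.00047) and Dse from 9.26 ± 1.99 to 13.9 ± 0.77 (adjusted p = 0.014). Dsel, a relative of Dse, and Ust, another sulfotransferase, were not called. Without control replicate 1 the number that rose was 3, and with a filter at 5 FPKM the number that fell was 2. Xylt2, Dse, Dsel and Ust were chosen after their values were seen. So were Bmp1, Mmp9, Adamts1, Adamts5, Tlr4, Bmp2, Tgfb1, Tgfb2 and Tgfb3 among the genes that follow.

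Of 8 tested keratan sulfate genes, 2 rose, 3 fell and 3 were not called (median log2 fold change 0.08). That is 62.5% called against 35.4% of all tested genes. The sulfotransferase Chst2 and the chain-extending enzyme B3gnt2 fell 1.72-fold and 1.44-fold. The sialyltransferase St3gal2 rose 2.03-fold, and the nucleotide sugar transporter Slc35d2 from 1.59 ± 0.46 to 2.80 ± 0.21 FPKM (SD, n = 3). The sialyltransferase St3gal3 fell from 8.42 ± 0.66 to 5.97 ± 0.83 FPKM (SD, n = 3, limma adjusted p = 0.016), and St3gal1 was not called. St3gal3 and St3gal1 were named after their values were seen. Chst1 and B3gnt7, a sulfotransferase and a chain-extending enzyme named after their values were seen, were under 0.7 FPKM in every library. Both tyrosylprotein sulfotransferases, which sulfate tyrosines of proteins such as fibromodulin, rose. Tpst2 averaged 15.2 ± 1.73 FPKM in controls and 25.6 ± 6.04 under strain (SD, n = 3; limma adjusted p = 0.00875), and Tpst1 averaged 3.55 ± 0.30 and 5.61 ± 1.34 FPKM (SD, n = 3; limma adjusted p = 0.022). Tpst1 lost its call without control replicate 1 or 3 (adjusted p = 0.0817 and 0.0559). Among 6 tested genes that supply sulfate, Papss1 rose and Papss2 fell, by log2 fold changes of 0.30 and -0.27 (limma adjusted p = 0.048 and 0.033). The share called in this list, 33.3%, was near that of all tested genes (35.4%). Papss1 was called in 6 and Papss2 in 9 of 15 alternatives.

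The proteases Bmp1 and Tll1 belong to the group that removes propeptides, that of biglycan among them. Tll1 was at 28.1, 25.05 and 29.8 FPKM in controls and 6.85, 5.91 and 4.04 FPKM under strain, and it fell 4.94-fold (log2 fold change -2.14 ± 0.16 SE, limma adjusted p = 4.6e-05). Bmp1 was at 28.0 ± 0.85 and 28.7 ± 4.12 FPKM (SD, n = 3) and was not called (95% interval of the log2 fold change -0.22 to 0.27). Pcolce, an enhancer of procollagen cleavage, rose 2.02-fold to 448 ± 86.3 FPKM. Of 11 tested proteases able to cut these proteoglycans, 6 fell and 3 rose (81.8% called against 35.4% of all tested genes). The stromelysin Mmp3 fell 18.3-fold, the aggrecanase Adamts4 5.37-fold and the macrophage elastase Mmp12 from 40.05 to 0.395 FPKM. Mmp9 fell from 520 ± 171 to 8.08 ± 6.70 FPKM (SD, n = 3). Cathepsin K (Ctsk), in contrast, rose 1.99-fold. Adamts5, also an aggrecanase, rose from 33.1 ± 8.79 to 60.6 ± 15.2 FPKM (SD, n = 3, limma adjusted p = 0.021). Adamts1 rose from 291 ± 62.8 to 519 ± 44.8 FPKM (SD, n = 3, limma adjusted p = 0.0033). The macrophage marker Cd68 also fell (1.53 ± 0.42 FPKM in controls, 0.633 ± 0.147 under strain, SD, n = 3, limma adjusted p = 0.00885). So did Adgre1 (3.71 ± 1.92 in controls, 1.31 ± 0.10 under strain, limma adjusted p = 0.0299). Mrc1 went the other way without overlap, at 0.016 to 0.038 FPKM in controls and 0.040 to 0.070 FPKM under strain. Ptprc, Csf1r and Aif1 overlapped, at most 0.049, 0.102 and 0.192 FPKM in any library. The part of these markers in the fall of Mmp12 was not tested.

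Of 11 tested collagens to which these proteins bind, 9 rose and 0 fell (81.8% called against 35.4% of all tested genes, median log2 fold change 1.04). Col6a3, Col14a1 and Col1a1 rose 8.41-fold, 3.26-fold and 2.75-fold and Col3a1 from 137 to 547 FPKM, all above the 2.42-fold of Dcn, a difference that was not tested. Col1a2, the other chain of type I collagen, was at 88.9 ± 13.5 and 70.5 ± 5.97 FPKM (SD, n = 3) and was not called (limma adjusted p = 0.068), far below the Col1a1 means of 1849 and 5085 FPKM. It was called lower with the replicate block and without control replicate 2 or strain replicate 3, and it was chosen after its values were seen. Of 18 tested receptors and growth factors that bind members, 3 rose, 7 fell and 8 were not called (median log2 fold change -0.19). That is 55.6% called against 35.4% of all tested genes. Tlr2, a receptor of soluble biglycan, fell 2.48-fold to 27.6 ± 7.24 FPKM, Cd44 fell 1.98-fold, and the collagen receptor subunit Itga2, which decorin also engages with its partner chain, fell from 13.7 to 0.442 FPKM. Tlr4, the other Toll-like receptor of biglycan, was at 4.74 ± 0.88 and 3.73 ± 0.86 FPKM and was not called (limma adjusted p = 0.20). Bmp4 rose 2.01-fold, while Bmp2 fell from 67.7 ± 8.11 to 9.40 ± 5.38 FPKM (SD, n = 3, limma adjusted p = 0.00090). Tgfb1 fell 1.28-fold, and Tgfb2 and Tgfb3 rose 1.62-fold and 1.61-fold (limma adjusted p = 0.036, 0.013 and 0.041). Without a filter Tgfb1 and Tgfb3 were not called (limma adjusted p = 0.063 and 0.081). Without control replicate 1 the number of rises in the list was 1.

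**Figure D4:**
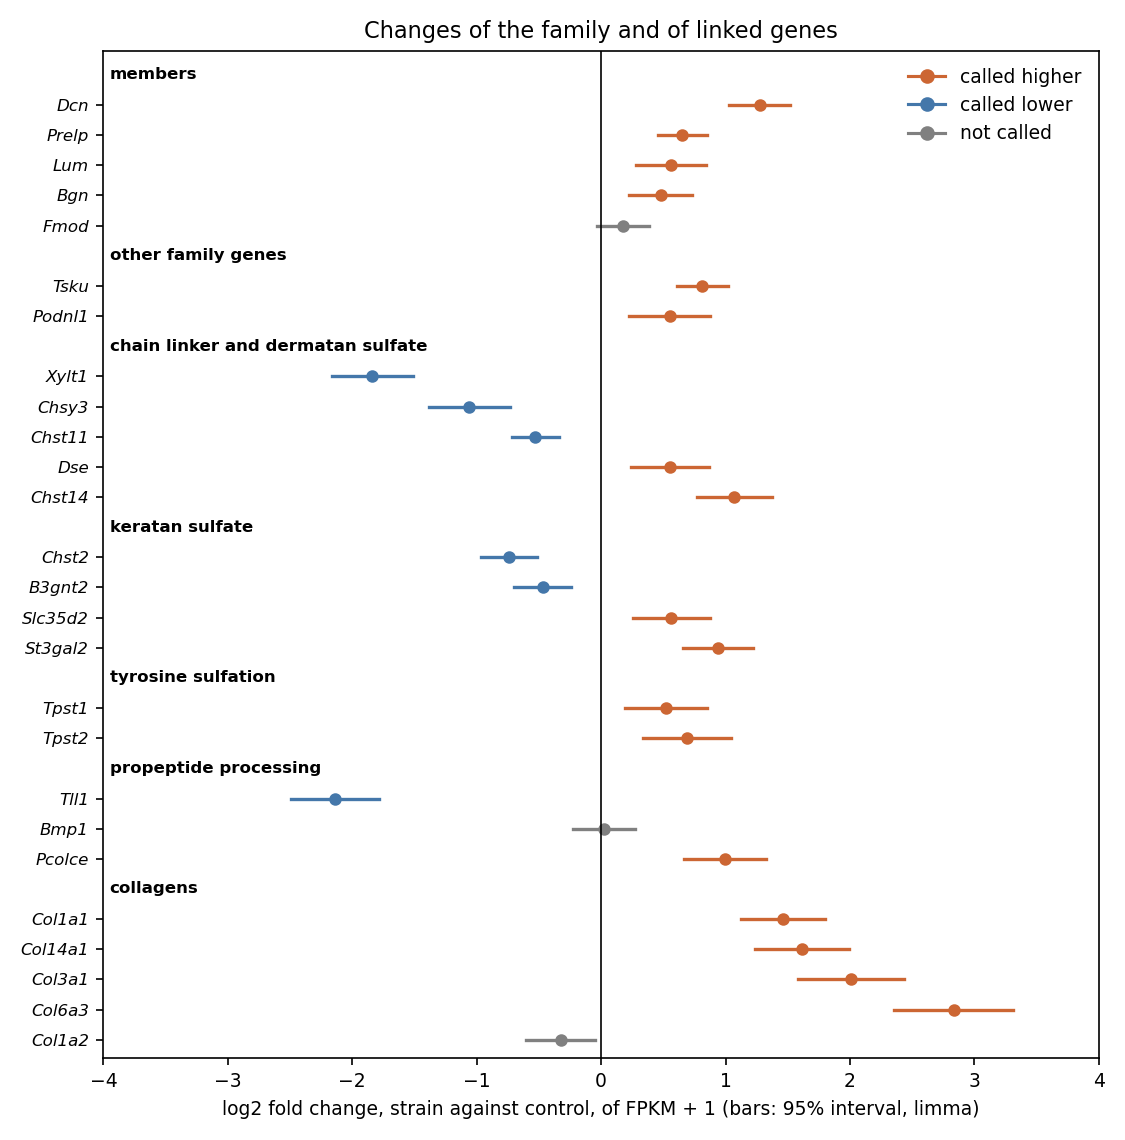
Log2 fold change of FPKM + 1, strain against control (horizontal axis; points: limma estimate, bars: 95% interval, not adjusted for the number of genes), for tested family genes and for linked genes named in the text. Only some of the linked genes named in the text are drawn. Dcn at 1.28 has the largest value among the members. The chain-building enzymes drawn were all called and lie on both sides of 0, from -1.84 for Xylt1 to 1.07 for Chst14. Of 19 tested genes for the linker, chondroitin chain and dermatan sulfate, 10 were not called.

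Across the 6 libraries, log2 values of the 5 expressed members correlated pairwise with Pearson's r of 0.70 (Fmod with Lum) to 0.98 (Dcn with Prelp). These are descriptions over 6 points in 2 groups, and a gene that differs between the groups in either size gives a high r. Among genes with at least the median level (8.03 FPKM), the profile most like Dcn was that of Sec31a, a coat protein of transport from the endoplasmic reticulum (r = 0.999), although Sec31a differed by only 0.15 on the log2 scale and was not called. It was followed by the complement protease C1s and by Prrc1 (r = 0.997 and 0.996). For Bgn these were Ehd3, Esyt1 and Slc44a2 (r = 0.999, 0.998 and 0.998), for Lum the complement gene C3, Ppp1r3c and Rab33b (r = 0.992, 0.989 and 0.982), and for Prelp Ifi27l2b, Ctxn3 and the metalloproteinase inhibitor Timp2 (r = 0.994, 0.992 and 0.991). The 3 genes most like Fmod all encode ribosomal proteins, Rpl17, Rps3 and Rpl27 (r = 0.998, 0.996 and 0.988). Like Fmod they were highest in strain replicate 3, which is part of the likeness by which they were picked.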

How the data were processed

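The deposited files give 1 FPKM value (fragments scaled to transcript length and library) per gene symbol for 22601 rows and 6 samples. The submitters' processing notes name Cufflinks, Cuffdiff 2.2.1, DESeq, HISAT2 2.0.4 and cutadapt 1.9.3, with hg19, a human build, as the only genome. The role of each tool, the annotation and any library scaling are not given in the sources used here. Gene symbols in the files are rat ones. The values were taken as FPKM by the authors' tools because they are not whole numbers. Rows whose symbol had become a calendar date and 1 broken row were left out.

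The test took genes averaging at least 1 FPKM over all 6 samples, on log2(FPKM + 1) with limma 3.58.1 in R 4.3.3 (mean-variance trend, robust moderation, no covariates, two-sided, Benjamini-Hochberg threshold 0.05). Such fold changes understate the change of low genes. Folds without log are ratios of FPKM means, left out where a mean is under 1. The fit was tested on simulated data. Ratios were tested by exact permutation in scipy 1.17.1. The members and all gene lists were chosen with earlier results of these data known. Named by rule were all members, other family genes, their direct genome neighbours, the 4 called genes with the smallest p of each list, and the 3 most alike genes with a symbol that is not provisional. Chst6, Bpnt2, Pcolce2 and Ccn4 of the lists were not matched by symbol. Bpnt2 and Ccn4 were in the files under their older symbols, also listed: Impad1 (0 FPKM in every library) and Wisp1 (means 27.1 and 30.5 FPKM, not called). Alternatives changed the pseudocount, filter, scaling, moderation, block and each library.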

Additional observations from a re-analysis of the deposited data

How the results depend on the processing

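Dcn, Lum and Prelp stayed called higher in all 15 alternatives run. The log2 fold change of Bgn was 0.42 to 0.52 with each library left out and that of Fmod 0.25 after quantile normalization, the only alternative that called it. The number of members called was 3 to 4 with each library left out and 6 without a filter, where 23.3% of 16152 genes were called. In that fit Ogn was called higher and Kera lower, while Aspn and Chad were tested and not called. Fewer samples gave 2375 to 3576 called genes with each library left out, of which 1047 to 1528 were higher (2375 and 1047 without control replicate 1). With a filter at a mean of 5 FPKM, 1071 genes were higher, from fewer genes tested. Over the linked lists together 50 of 80 tested genes were called (62.5% against 35.4% of all tested genes), and 37 to 52 over the alternatives. Fits without a filter that also left out a library or used a pseudocount of 0.1 were chosen after seeing the data.

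Deviations of same-numbered samples from their group means correlated at 0.03, 0.11 and -0.12, which gave no sign of pairing by replicate number. With 3 libraries per group the deviations of each gene sum to 0, so these values cannot exclude paired cultures or animals. With the number as a replicate block 3116 genes and the same 4 members were called. The size of a difference cannot move with such a block in a balanced design. The depth is unknown, so the counting error could not be computed for any value, those under 1 FPKM included.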
